A study of Rattus norvegicus with 2 samples.

Results

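The genes described here encode the collagens, the laminin chains, fibronectin and the integrins, that is, the fibres and sheets outside a cell and the receptors that hold the cell to them. They were chosen by name: every non-control probe whose gene name was Col with 2 numbers joined by a, Lama, Lamb or Lamc with a number, Itga or Itgb with a number, or Fn1. Described here are 66 such genes, read by 91 probes and 204 spots, out of 27235 named genes on the array. Of the 66 genes, 11 encode chains of the fibrillar collagens, 28 chains of other collagens, 7 laminin chains, 11 integrin alpha chains, 8 integrin beta chains and 1 fibronectin. Integrin chains with a letter in place of the number, such as Itgav and Itgam, lie outside that rule, as do genes whose probes carry only a transcript identifier.

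The study compared IEC6 cells, an established epithelial line from the small intestine of the rat, given either water or the inorganic polysulfide Na2S3 (sodium trisulfide) for 60 min. The dose is stated as 100 µM in the treated sample's label and in the series design, but as 100 mM in the treatment protocol, and the sources used here do not settle which was used. The cells were grown in dishes in DMEM with fetal calf serum and treated in DMEM with less serum, and no genetic change is named for either group. Total RNA from 1 sample of each group was labelled with Cy3 and hybridised to 1 Agilent array, so the differences below have no replicate check and carry no p-value.

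Collagen chains wind in threes into a triple helix, which requires glycine at regular steps along the chain, with a pair of other residues between. Fibrillar collagens assemble into the fibres of connective tissue, while collagen IV forms the mesh of the basement membrane, the thin sheet on which intestinal epithelium rests. Laminins are cross-shaped trimers of 1 alpha, 1 beta and 1 gamma chain that lie on the epithelial side of that sheet. Integrins are pairs of an alpha and a beta chain in the cell membrane that bind collagen, laminin or fibronectin outside and the actin or keratin skeleton inside.

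Every level below is a scaled signal, the processed spot intensity divided by the 75th percentile of all probes on the same array, so that a value of 1 stands at that percentile. Probes differ in how strongly they bind, so the scaled signal of 1 gene is not compared with that of another. A gene was called measured when 1 of its probes was well above background on both arrays, and its value is that of the brightest such probe. Every log2 ratio is Na2S3 over water. The error beside a log2 ratio is its spot error. This is the spread of repeat spots of similar brightness, divided by the square root of the probe's own number of spots. At similar brightness it is therefore smaller for a probe with more spots. The spot error covers the spotting and scanning of these 2 arrays and not the variation between cultures. Differences of 2-fold or more and of 1.5-fold or more were counted, as rules of size and not as tests.

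IEC6 cells gave a measurable signal for 37 of the 66 genes on both arrays, or 56.1%, beside 48.0% of all named genes. By their named probes, Col23a1 was above background on the Na2S3 array alone, and 28 genes were well above background on neither. These counts depend on the flag. With the scanner software's flag for a positive and significant signal, 52 genes were detected on the water array and 47 on the Na2S3 array. With the flag for a signal well above background they were 37 and 38, beside 13673 and 13532 of all 27235 named genes. The share of all named genes under the first flag is not given here, so 52 and 47 are not read as particular to these genes. Among the 37 measured genes, 1 was higher on the Na2S3 array by 2-fold or more, beside 0.942% of the 13062 genes measured in all, and 0 were lower by that much, beside 0.62%. At the smaller size of 1.5-fold, 2 were higher, beside 2.96%, and 0 were lower, beside 3.41%. These 2 were Col20a1 and Col11a2, each read by 1 spot of low signal. A log2 ratio above 0 was found for 27 of the 37, or 73.0%, beside 43.4% of all measured genes. Both figures depend on the processing. With quantile normalization they were 28 of the 37 and 51.4% of all genes, and with normexp background correction 24 of the 37 and 41.0%. The median over the 37 was 0.08, beside -0.04 over all measured genes, and 35 of the 37 lay within 1.5-fold.

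**Figure D1:**
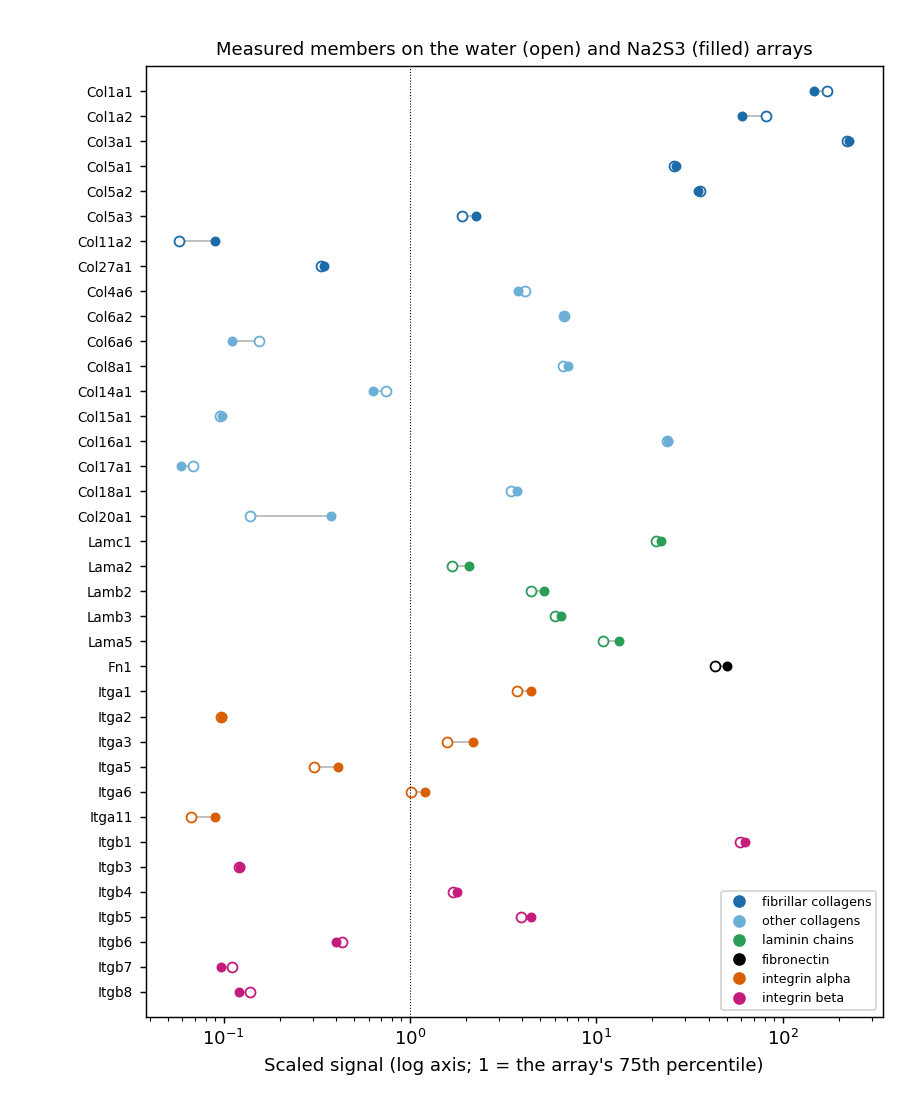
Scaled signal (log axis, no unit, 1 is the 75th percentile of the array) of the 37 measured genes on the water array (open) and the Na2S3 array (filled), coloured by class, with 1 array a group. The pair of points lies close together for most genes and is widest for Col20a1 (0.138 and 0.377) and Col11a2 (0.0576 and 0.0901).

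The gene furthest from equal signal was Col20a1, which encodes a collagen that is not fibrillar itself but carries short triple helices. Its array probe is shown here because another probe for the gene disagrees with it. In the gene list of the array Col20a1 has 1 probe, and the descriptions of 3 further probes name the same gene although their name field holds a transcript identifier. All 4 lie on chromosome 3 of rn4, with start before end in the files, read here as the plus strand. The sequences below run 5′ to 3′ and are the first 30 bases of each 60-base probe, or all 60 bases where the probe lies in the triple-helix repeat. Capitals mark codons for glycine.
Col20a1, named probe, chr3:170136769-170136828: ctcctcaagccccttctttatagcatttcc
Col20a1, first described probe, chr3:170127106-170127165: agacatgcccggccttccctttagcctgta
Col20a1, second described probe, chr3:170132592-170133066: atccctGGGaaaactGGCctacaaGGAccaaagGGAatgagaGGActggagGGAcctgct
Col20a1, last described probe, chr3:170135060-170135119: ttacacaacaaggctctacttcctggagac
The second described probe carries 6 glycine codons in step and spans 475 bases of genome, so it joins separate stretches of the gene. The named probe lies furthest downstream of the 4.

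At the named probe, Col20a1 had a scaled signal of 0.138 on the water array and 0.377 on the Na2S3 array. The Na2S3 array was 2.74-fold higher, a log2 ratio of 1.45 with a spot error of 0.20. At the first described probe the scaled signal was 0.138 on the water array and 0.126 on the Na2S3 array, a log2 ratio of -0.13 with the same spot error of 0.20. The 2 other probes were well above background on neither array. The 2 measured probes of Col20a1 therefore differed by 1.59 on the log2 scale and in direction, and with normexp background correction the ratio of the named probe was 0.81, below 2-fold.

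The fibrillar collagens were measured for 8 of 11 chains, or 72.7%, beside 48.0% of all named genes. Their median log2 ratio was 0.04, with a range of -0.43 to 0.64. Both chains of collagen I, the main collagen of connective tissue, were lower on the Na2S3 array. Col1a1 gave a scaled signal of 173 on the water array and 147 on the Na2S3 array, a log2 ratio of -0.24 with a spot error of 0.07. Its other probe went from 76 to 61.3, with a log2 ratio of -0.31. Col1a2, the partner chain, gave 81.7 and 60.8, with a log2 ratio of -0.43 and a spot error of 0.07. The Na2S3 array was thus 1.34-fold lower for Col1a2, the lowest ratio among the fibrillar chains. These bright genes depend on the scaling: with quantile normalization of the 2 arrays, the log2 ratio was -0.04 for Col1a1 and -0.26 for Col1a2. Of all 1771 genes in the brightest range of signal, a mean log2 scaled signal above 4, the median log2 ratio was -0.10, so bright genes as a whole lay slightly lower on the Na2S3 array.

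Collagen III and collagen V co-assemble with collagen I, collagen V as the chain set that starts a fibril. Col3a1, read by 10 spots, gave a scaled signal of 222 on the water array and 228 on the Na2S3 array, a log2 ratio of 0.03 with a spot error of 0.02. Its 10 spot pairs ran from -0.04 to 0.13, with 7 of 10 above 0. With quantile normalization the value was 0.27. Col5a1 gave 26.1 and 26.8, with a log2 ratio of 0.04 over 10 spots, and 0.13 at a second probe. Col5a2 gave 36 and 35.2 at the probe used, with a log2 ratio of -0.03. Its second probe, which overlaps the first on the genome, gave -0.11 with all 10 spot pairs below 0, and the gene turned to 0.07 with quantile normalization, so no direction can be given for Col5a2. Col5a3, another collagen V chain, gave 1.91 and 2.26 over 2 spots, with a log2 ratio of 0.24 and a spot error of 0.05. For Col5a3 the gap was larger than the spot error, and both of its spot pairs were above 0.

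The other fibrillar chains were dim. Col11a2, a chain of the cartilage collagen XI, gave a scaled signal of 0.0576 on the water array and 0.0901 on the Na2S3 array, 1.56-fold higher, with a log2 ratio of 0.64 and a spot error of 0.39. With normexp background correction this was 0.11. A second Col11a2 probe was above background on the Na2S3 array alone and the last on neither array. The second lies in the triple-helix repeat, shown here 5′ to 3′ with the 6 glycine codons in capitals, and spans 315 bases of rn4 on the minus strand (end before start in the files).
Col11a2, second probe, chr20:4936632-4936946: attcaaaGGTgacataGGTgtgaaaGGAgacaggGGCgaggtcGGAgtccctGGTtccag
Col27a1 gave 0.332 and 0.346, with a log2 ratio of 0.06 and a spot error of 0.18. Col11a1, Col24a1 and Col2a1, the collagen of cartilage, were well above background on neither array.

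Of the 28 chains of other collagens, 10 were measured, or 35.7%, beside 48.0% of all named genes. Their median log2 ratio was 0.01, with a range of -0.47 to 1.45, of which the upper end is Col20a1. Among the basement membrane collagens, the main chain Col4a1, read by a probe printed 10 times, was well above background on neither array, nor were Col4a3 and Col4a4. Col4a6 was measured, with a scaled signal of 4.14 on the water array and 3.79 on the Na2S3 array, a log2 ratio of -0.13 and a spot error of 0.07. A described probe in its triple-helix repeat gave -0.09. Col18a1 and Col15a1, the basement membrane collagens that carry heparan or chondroitin sulfate, were both measured. Col18a1 gave 3.47 and 3.74, a log2 ratio of 0.11 over 2 spots. Col15a1 gave 0.096 and 0.0979, a log2 ratio of 0.03 with a spot error of 0.39, and turned negative with normexp.

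Collagen VI forms beaded filaments next to basement membranes. Col6a2 gave 6.69 on the water array and 6.71 on the Na2S3 array, a log2 ratio of 0.01 with a spot error of 0.02 and 7 of 8 spot pairs above 0. A second, dimmer probe of Col6a2 gave -0.23 with a spot error of 0.20, so the median over both probes was -0.11. Col6a6 gave 0.155 and 0.111, a log2 ratio of -0.47 with a spot error of 0.20, the lowest of the 37. With normexp it was -0.30. Col6a3, read by a 10-spot probe, Col6a4 and Col6a5 were not well above background.

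The remaining measured collagens lay within 1.5-fold. Col16a1, which sits on fibrils, gave 24.1 and 24.4, a log2 ratio of 0.02 over 10 spots. Col8a1, a short-chain collagen, gave 6.63 and 7.05, a log2 ratio of 0.09 with a spot error of 0.08. Col14a1, also bound to fibrils, gave 0.741 and 0.635, a log2 ratio of -0.22 with a spot error of 0.10. Col17a1, the membrane-spanning collagen of hemidesmosomes, gave 0.0681 and 0.0591, a log2 ratio of -0.20 with a spot error of 0.28. By the main scaling, the gap was larger than the spot error for Col14a1 and, by a small margin, for Col8a1. For Col16a1 and Col17a1 it was not. The bright Col16a1 depends on the scaling: with quantile normalization its log2 ratio was 0.10, beside a spot error of 0.02.

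Col23a1, another membrane-spanning collagen, was above background on the Na2S3 array alone. At 1 of its 3 probes the scaled signal was 0.0373 on the water array, not well above background, and 0.0962 on the Na2S3 array. Against the lowest signal that counted as well above background on the water array, it was 2.17-fold higher, from 1 spot with a spot error of 0.40. This is not a firm lower bound, because the Col4a4 probe exceeded that lowest signal on the water array without being well above background. The 2 other Col23a1 probes were well above background on neither array. One of them, in the triple-helix repeat and on the plus strand of chromosome 10 of rn4, is shown 5′ to 3′ with its 6 glycine codons in capitals.
Col23a1, probe not above background, chr10:37064934-37067076: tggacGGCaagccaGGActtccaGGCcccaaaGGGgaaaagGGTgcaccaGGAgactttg
The other collagens not well above background were Col10a1, Col13a1, Col19a1, Col22a1, Col25a1, Col26a1, Col7a1, Col8a2, Col9a1, Col9a2 and Col9a3, by their named probes. A described probe of Col9a3 was well above background on the water array alone, with a scaled signal of 0.131 there and 0.0127 on the Na2S3 array. Against the lowest signal well above background on the Na2S3 array, the fall was 3.05-fold, from 1 spot, again not a firm lower bound. The named probe of Col9a3 was well above background on neither array. Col7a1 encodes the anchoring fibrils under the skin epithelium, and the collagen IX chains belong to cartilage.

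**Figure D2:**
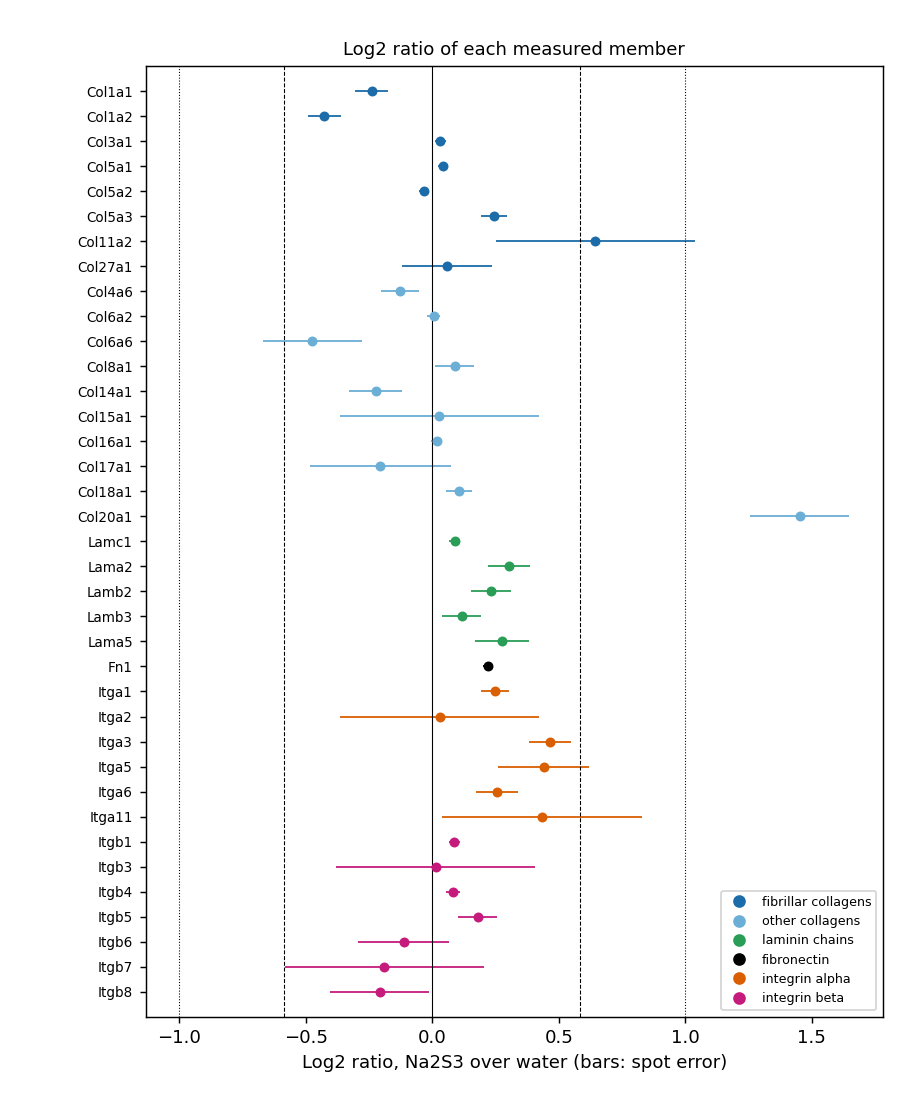
Log2 ratio (Na2S3 over water) of the 37 measured genes by class, with 1 array a group. Bars are the spot error, dashed lines mark 1.5-fold and dotted lines 2-fold either way. All 5 laminin chains and all 6 integrin alpha chains lie above 0, beside 43.4% of all measured genes. Of the 37, 2 lie past 1.5-fold, both on the higher side, beside 2.96% higher and 3.41% lower of all measured genes.

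Laminin chains were measured for 5 of 7 genes, or 71.4%, beside 48.0% of all named genes. All 5 were higher on the Na2S3 array, beside 43.4% of all measured genes, or 51.4% with quantile normalization. The median log2 ratio of the 5 was 0.23, with a range of 0.09 to 0.30. Lama2 and Lama5 encode the alpha chains, which bind the cell. Lama5, the alpha chain of the adult epithelial laminins, gave a scaled signal of 10.9 on the water array and 13.2 on the Na2S3 array, a log2 ratio of 0.28 with a spot error of 0.11. Its second probe gave 0.18. Lama2 gave 1.67 and 2.06, a log2 ratio of 0.30 with a spot error of 0.08. A second probe of Lama2 gave 0.36 and a described probe 0.28, so the 3 probes of this gene lay within 0.08 of each other. Lama1 was not well above background.

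The beta and gamma chains complete the trimer. Lamb2 gave 4.44 on the water array and 5.22 on the Na2S3 array, a log2 ratio of 0.23 with a spot error of 0.08. Lamb3, a beta chain of epithelial laminin at hemidesmosomes, gave 5.98 and 6.49, a log2 ratio of 0.12 with a spot error of 0.08. Lamc1, the gamma chain shared by most laminins, gave 20.8 and 22.2 over 10 spots, a log2 ratio of 0.09 with a spot error of 0.02, and 10 of 10 spot pairs were above 0. With quantile normalization the Lamc1 value was 0.16. Lamc3 was not well above background at either of its probes.

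Fibronectin, the matrix protein that links cells to collagen and binds the integrin of Itga5 and Itgb1, was read by 10 spots of 1 probe. Fn1 gave 43.1 on the water array and 50.2 on the Na2S3 array, 1.17-fold higher, a log2 ratio of 0.22 with a spot error of 0.02. The 10 spot pairs ran from 0.18 to 0.26, all above 0. With quantile normalization the ratio was 0.35. The difference was therefore larger than the spot error, while what it would be in a second culture is not known.

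**Figure D3:**
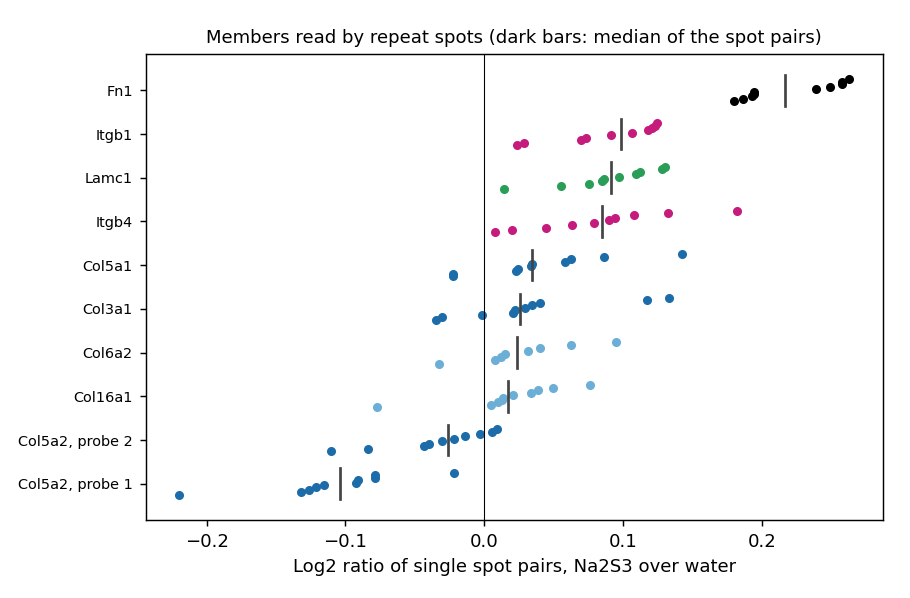
Log2 ratio (Na2S3 over water) of every spot pair for the 10 probes with 8 to 10 spot pairs, 1 row per probe, with a dark bar at the median. The 2 probes of Col5a2 lie lowest, at medians of -0.10 and -0.03. Fn1 lies furthest right, from 0.18 to 0.26, and Itgb1, Lamc1 and Itgb4 lie wholly above 0.

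Integrin alpha chains were measured for 6 of 11 genes, or 54.5%, beside 48.0% of all named genes. All 6 were higher on the Na2S3 array, beside 43.4% of all measured genes, though Itga2 turned negative with normexp. Of the 6, 0 reached 1.5-fold, beside 2.96% of all measured genes higher by that much. Their median log2 ratio was 0.35, with a range of 0.03 to 0.47. This median was 0.21 with normexp, 0.21 with described probes added and 0.029 without the filter on dim probes. The laminin receptors Itga3 and Itga6 were among them. Itga6, which pairs with Itgb4 in hemidesmosomes, gave 1.01 on the water array and 1.21 on the Na2S3 array, a log2 ratio of 0.26 with a spot error of 0.08, and its second probe gave 0.22. Itga3 gave 1.58 and 2.18, 1.38-fold higher, a log2 ratio of 0.47 with a spot error of 0.08. The size of the Itga3 ratio depends on the probe, so the first 30 bases of its 3 probes are given 5′ to 3′, all on the minus strand of chromosome 10 of rn4.
Itga3, named probe, chr10:83728587-83728646: ccggaatgggttttatgagtggctctctaa
Itga3, first described probe, chr10:83739167-83739387: tgtgaaggatgtgggaagccccctgaaata
Itga3, second described probe, chr10:83730599-83736695: taccctgttcctgagaaccagtatccctac
The first described probe gave a log2 ratio of 0.10 and the second 0.18, each with a spot error of 0.20 and each spanning more genome than its own length. All 3 probes of Itga3 were above 0, and their median was 0.18.

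Among the alpha chains of collagen receptors, Itga1 gave 3.75 on the water array and 4.45 on the Na2S3 array, a log2 ratio of 0.25 with a spot error of 0.06, and its 3 probes ran from 0.07 to 0.25. Itga2 gave 0.0961 and 0.0981, a log2 ratio of 0.03 with a spot error of 0.39, and turned to -0.07 with normexp. Itga11 gave 0.0664 and 0.0896, a log2 ratio of 0.43 with a spot error of 0.39, and was 0.03 with normexp. Itga5, the fibronectin receptor chain, gave 0.304 and 0.413, 1.36-fold higher, a log2 ratio of 0.44 with a spot error of 0.18. With normexp Itga5 was at 0.27. Of the 6 alpha chains, Itga1, Itga3, Itga5 and Itga6 thus lay further from 0 than their spot errors by the main scaling, as did Itga11 by a small margin, and Itga2 did not. The alpha chains Itga4, Itga7, Itga8, Itga9 and Itga10 were well above background on neither array.

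Integrin beta chains were measured for 7 of 8 genes, or 87.5%, beside 48.0% of all named genes. Their median log2 ratio was 0.01, with a range of -0.21 to 0.18, and the median was -0.11 with normexp. Itgb1, the partner of most alpha chains above, gave 58.8 on the water array and 62.5 on the Na2S3 array, a log2 ratio of 0.09 with a spot error of 0.02 and 10 of 10 spot pairs above 0. Its second probe gave 0.22, and with quantile normalization the Itgb1 value was 0.24. Itgb4, the hemidesmosome chain, gave 1.7 and 1.8 over 10 spots, a log2 ratio of 0.08 with a spot error of 0.03 and all 10 spot pairs above 0. Itgb5, a chain of vitronectin receptors, gave 3.92 and 4.44, a log2 ratio of 0.18 with a spot error of 0.08. These 3 beta chains were higher on the Na2S3 array by more than the spot error, by 1.06-fold, 1.06-fold and 1.13-fold.

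The other beta chains were dim. Itgb6, an epithelial chain that activates TGF-beta, gave 0.432 and 0.4, a log2 ratio of -0.11 with a spot error of 0.18, and -0.07 at its second probe. Itgb7, known from lymphocytes that home to the gut, gave 0.111 and 0.0972, a log2 ratio of -0.19 with a spot error of 0.39. Itgb8 gave 0.139 and 0.12, a log2 ratio of -0.21 with a spot error of 0.20, and its second probe gave 0.14. Itgb3 gave 0.121 and 0.122, a log2 ratio of 0.01, and turned to -0.11 with normexp. A second probe of Itgb3 was above background on the water array alone, with a scaled signal of 0.0564 there and 0.0246 on the Na2S3 array. Against the lowest signal well above background on the Na2S3 array, this was a 1.31-fold fall, at a probe with a spot error of 0.40. For the measured probes of Itgb3, Itgb6 and Itgb7 the gap was smaller than the spot error, and for Itgb8 about equal to it. Itgb2, the leukocyte chain, was well above background on neither array.

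Several genes were read by more than 1 measured probe. For the 11 genes with 2 or more named probes, the gap between the highest and the lowest ratio ran from 0.03 to 0.35, with a median of 0.09. The direction differed between probes for 2 of them, Col6a2 and Itgb8. With described probes included, 14 genes had at least 2 probes and 3 differed in direction, with Col20a1 added to them.

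**Figure D4:**
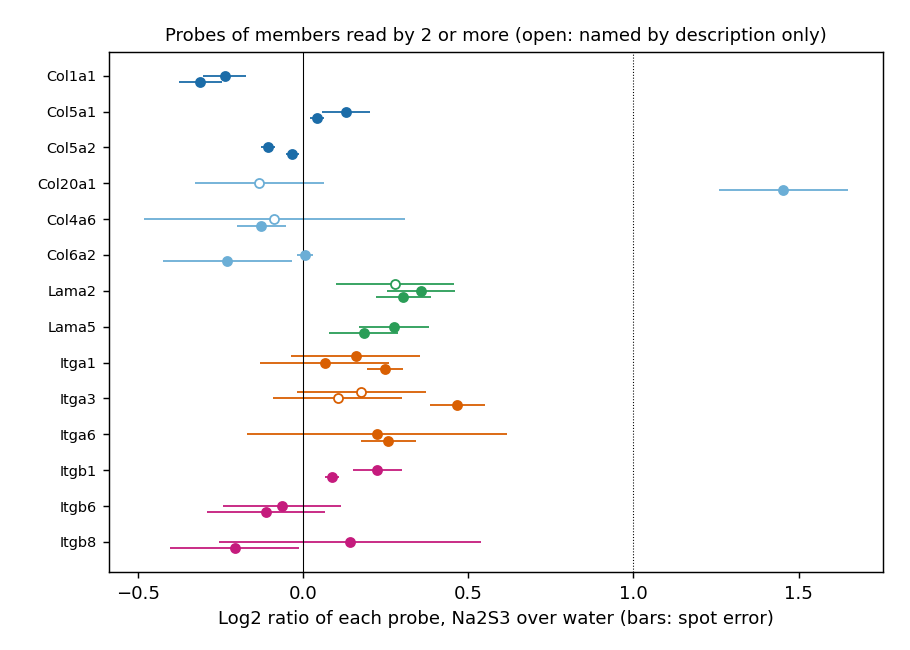
Log2 ratio (Na2S3 over water) of each measured probe for the 14 genes with at least 2, with the spot error as a bar, filled for named probes and open for probes identified by description alone. The gap between the probes of a gene is widest for Col20a1, at -0.13 and 1.45, and next for Itga3, from 0.10 to 0.47, and Itgb8, from -0.21 to 0.14. All probes of Lama2, Lama5, Itga1, Itga3, Itga6, Itgb1 and Col5a1 lie above 0, and all probes of Col1a1, Col4a6, Col5a2 and Itgb6 lie below 0.

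The probes named by description alone also cover 9 chains that the naming rule missed, and they were looked at after the values were seen. Of these, 5 were measured. Lamb1, the beta chain of the commonest laminins, gave 18.7 on the water array and 20.6 on the Na2S3 array over 10 spots, a log2 ratio of 0.14. Col12a1, a fibril-bound collagen, gave 0.15 at its 10-spot probe and -0.14 and 0.22 at its 2 single-spot probes. Col4a5 gave a log2 ratio of 0.09 and Col6a1 one of -0.04, the latter over 10 spots. Itga2b gave -0.38 with a spot error of 0.39. Col4a2, Col28a1, Lama3 and Lama4 were not well above background. By these probes, Col4a1 and Col4a2, the usual pair of the basement membrane network, were both not measured in these cells.

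**Figure D5:**
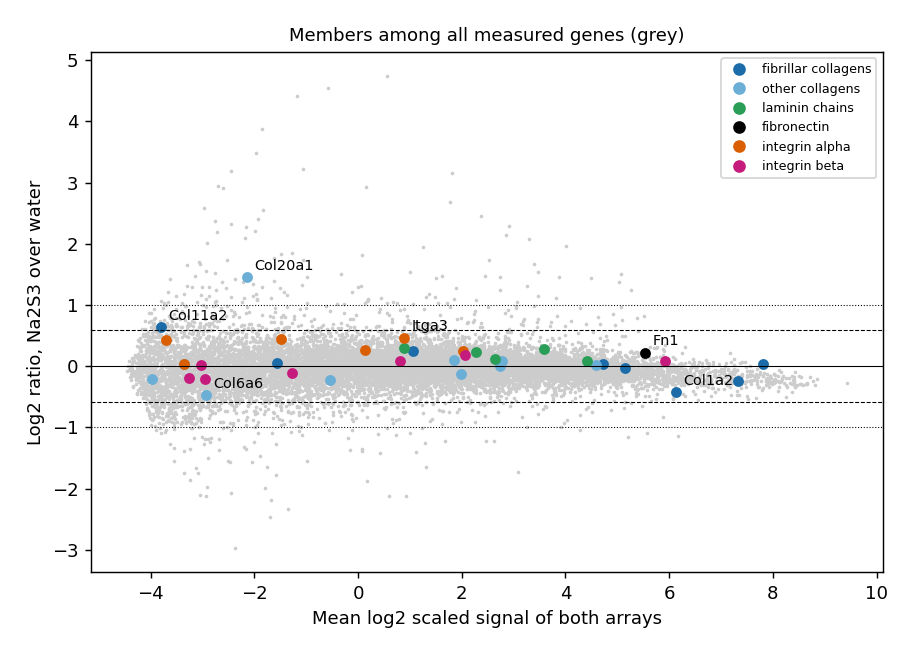
Log2 ratio (Na2S3 over water) against the mean log2 scaled signal of both arrays, for all 13062 measured genes (grey) and the 37 genes described (coloured by class). Dashed lines mark 1.5-fold and dotted lines 2-fold. Col20a1 stands at 1.45 and Col11a2 at 0.64 among dim genes, where the grey points spread widely in both directions.

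The share of all genes past 1.5-fold was higher in the dim ranges from -4 to -2 than in the brightest one, where 0.903% lay on each side, and was lower again in the 263 genes below -4, at 2.28% higher and 3.42% lower. Among the 1200 genes with a mean log2 scaled signal from -3 to -2, where Col20a1, Col6a6 and Itgb8 lie, 6.58% were higher and 6.0% lower by 1.5-fold or more. Among the 1083 genes from -4 to -3, where Col11a2, Itga11, Itga2, Itgb3, Itgb7, Col15a1 and Col17a1 lie, these shares were 7.85% and 14.2%. In the brightest range, 9 of the 37 genes had a median log2 ratio of 0.03, beside -0.10 for all genes there. Low signal moves with both ratios past 1.5-fold, and its part in them was not tested.

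Genes that act on the same matrix were counted from lists by function. Beside them, 48.0% of all named genes were measured. Of all measured genes, 43.4% lay above 0, 2.96% were higher and 3.41% lower by 1.5-fold or more, and the median was -0.04. A count of 0 past 1.5-fold in so short a list is near these shares. Of 27 genes for collagen processing with a probe, 24 were measured, or 88.9%. By brightest probes, their median log2 ratio was 0.02, 13 of 24 lay above 0, or 54.2%, and 0 were past 1.5-fold either way. P4ha1, a subunit of prolyl hydroxylase, had the highest at 0.34 (8.78 on the water array and 11.1 on the Na2S3 array), followed by the crosslinking enzyme Loxl1 at 0.25 and the lysyl hydroxylase Plod2 at 0.18. The lowest were Loxl2 at -0.24, Crtap at -0.23 and Pcolce at -0.20, a crosslinking enzyme, a partner of prolyl 3-hydroxylase and an enhancer of procollagen cleavage. Loxl4 gave -0.07 at its brightest probe and -0.71, past 1.5-fold, at its second. Of 16 other basement membrane genes with a probe, 13 were measured, or 81.25%. By brightest probes the median was -0.07, with 3 of 13, or 23.1%, above 0 and 0 past 1.5-fold. The laminin receptor Bcam had the highest at 0.22, then the syndecans Sdc4 at 0.12 and Sdc1 at 0.01. Fbln1 had the lowest at -0.24, then Cd151 at -0.12 and the dystroglycan gene Dag1 at -0.11. The 3 measured probes of Dag1 ran from -0.11 to 0.42. Agrn gave -0.04 at its brightest probe and -0.30 at its second. Pxdn gave -0.05 at its brightest probe and 0.68, past 1.5-fold, at its second.

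Among 25 other matrix glycoproteins and proteoglycans, 16 were measured, or 64.0%, with a median of 0.05. Of the 16, 13 lay above 0, or 81.25%, beside 43.4% of all measured genes. The matricellular genes Ccn1 and Ccn2, whose proteins bind integrins, had the highest ratios of this list. Ccn1 gave 1.72 on the water array and 4.68 on the Na2S3 array over 10 spots, 2.73-fold higher, a log2 ratio of 1.45. Ccn2 gave 24.1 and 47.2 over 10 spots, a log2 ratio of 0.97. By brightest probes, Fbn1 had the next highest value at 0.32, and the lowest were Eln at -0.15, Bgn at -0.12 and Fmod at -0.06. Fbn2 gave 0.14 at its brightest probe and 0.84, past 1.5-fold, at its second. A second probe of Bgn gave -0.21. Both Ccn genes kept their size with normexp, at 1.38 and 0.98.

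Of 25 matrix proteases and inhibitors, 16 were measured, with a median of -0.14 and 4 of 16 above 0. The protease Adamts1, which cleaves proteoglycans, gave 0.522 on the water array and 0.167 on the Na2S3 array over 10 spots, 3.13-fold lower, a log2 ratio of -1.64, and -1.11 with normexp. Its relative Adamts5 gave 0.138 and 0.073, a log2 ratio of -0.92 with a spot error of 0.39, and with normexp -0.51, within 1.5-fold. The urokinase receptor gene Plaur gave 0.917 and 1.99, 2.18-fold higher, a log2 ratio of 1.12, and a second probe gave 1.27. With normexp Plaur was at 0.99. Next to these, Mmp19 stood at 0.21 and Mmp15 at -0.44, and Mmp13 was above background on the water array alone.

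Of 26 genes for integrin adhesion proteins, 23 were measured, or 88.5%, with a median of 0.08. Of the 23, 17 lay above 0, or 73.9%, beside 43.4% of all measured genes. Fermt1, the epithelial kindlin that activates integrins, gave 0.458 on the water array and 0.688 on the Na2S3 array, a log2 ratio of 0.59, and was the 1 gene of this list past 1.5-fold at a probe measured on both arrays. With normexp Fermt1 was at 0.43, within 1.5-fold. Zyx, the focal adhesion protein zyxin, gave 6.36 and 9.36, a log2 ratio of 0.56 and, with normexp, of 0.66, past 1.5-fold. Lims1, also called PINCH, gave 0.776 and 1.11, a log2 ratio of 0.52. The lowest were Tns3 at -0.21, the vinculin gene Vcl at -0.18 and Rsu1 at -0.16. Parvb, an actin-binding partner of the integrin-linked kinase, stood at 0.33 at its measured probe, but a second probe was above background on the Na2S3 array alone, with a scaled signal of 0.0252 on the water array and 0.548 on the Na2S3 array. At that 1 spot Parvb was 12.4-fold higher against the lowest signal well above background on the water array, which is not a firm lower bound. That probe was chosen after its values were seen. These lists were described by counts alone, with no test.

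Both arrays had 22560 and 22349 probes well above background, or 49.5% and 49.0% of 45598, for water and Na2S3. Of 15 epithelial markers with a probe, 6 were measured, or 40.0%, beside 48.0% of all named genes. They were Cdh1 (35.6 on the water array and 34.1 on the Na2S3 array), Krt8, Krt18, Krt19, Cdx1 and Cldn3. Epcam, Vil1, Cdx2, Krt20, Cldn4, Cldn7, Lgr5, Fabp2 and Alpi were not well above background, among them the enterocyte markers Vil1, Fabp2 and Alpi. Of 12 fibroblast and mesenchymal markers, 6 were measured: Vim (93.6 and 95), Thy1 (0.311 and 0.244), Acta2 (0.159 and 0.132), S100a4, Dcn and Des, while Pdgfra, Pdgfrb, Cdh2, Lum, Fap and Twist1 were not. Of 5 endothelial markers, 3 were measured, or 60.0%: Vwf (6.01 and 4.72), Tek (2.03 and 1.88) and Cdh5 (0.103 and 0.102). Of 5 immune markers, 2 were measured, or 40.0%: Ptprc (0.0707 and 0.0567) and Cd68 (0.214 and 0.177). Pecam1, Kdr, Cd3e, Itgam and Lyz2 were not well above background. The median log2 ratio was -0.03 for the epithelial, -0.16 for the mesenchymal, -0.11 for the endothelial and -0.29 for the immune markers. In RNA from a whole culture, fewer cells of a type and less RNA per cell cannot be told apart, and the part of such cells in the collagen I values was not tested.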

How the data were processed

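Total RNA from 1 dish culture sample per group was measured on 1-colour Agilent arrays, which share 1 slide and scan day. The scanner tables hold linear spot intensity from Agilent Feature Extraction 10.7.1.1, background-subtracted by that software, per the file headers, whereas version 9.5.1.1 stands in the submitters' processing notes. The authors' deposited table holds linear intensity too. No source used here names its normalization. The sorted values of its 2 columns differ by at most 0.36, so the columns share nearly 1 distribution, as quantile normalization gives. With it and with quantile normalization alike, 458 measured genes were higher by 1.5-fold or more, so these 2 alternatives are nearly the same. Both columns have a median of 19.3 and follow the scanner values (Pearson r at least 0.99997 on the log2 scale).

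Outlier spots were left out (448 and 390), and 0 were saturated. Log2 signal was averaged over a probe's spots and scaled to the array's 75th percentile (413 and 478 intensity units for water and Na2S3), which removed a shift of 0.21. A probe was well above background when more than 50% of its spots carried that flag. Gene names are the file's, and for 58 of 91 probes the accession gives the same symbol in the GRCr8 gene table and for 0 another. Coordinates are rn4, from the files; exon and UTR positions were not analysed here, so only 30 bases were printed of probes outside a triple-helix repeat. With 1 array a group, the number of arrays sets the precision.

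Genes, classes and lists were chosen with earlier results of these data known. Some genes that match the rule or the lists are not reported here and are left out of their counts. All 66 genes were accounted for, with values for the measured ones; each list gives up to 3 of its highest and lowest ratios and any at least 1.5-fold. The alternatives were normexp (limma 3.58.1 in R 4.3.3, offset 50), median scaling, quantile normalization, the deposited table, no filter on dim probes, the median over probes and other detection flags; adding probes named by description was chosen after seeing the data. The ratio step was tested on simulated data. Python packages were numpy 2.4.6, pandas 2.3.3 and matplotlib 3.10.9.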

Additional observations from a re-analysis of the deposited data

How the results depend on the processing

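With normexp background correction, 0 of the 37 measured genes were higher by 2-fold or more and 1, Col20a1, by 1.5-fold or more. The integrin alpha median was 0.21 and the integrin beta median -0.11. Over all measured genes, normexp gave 61 higher and 31 lower at 2-fold, and 181 higher and 165 lower at 1.5-fold. Without the filter on dim probes, 4 of the 66 were higher and 3 lower at 2-fold, 6 higher and 3 lower at 1.5-fold, the integrin alpha median was 0.029, and all genes gave 1062 and 1545 at 2-fold and 2075 and 3053 at 1.5-fold. With described probes added and the median taken over probes, an alternative chosen after seeing the data, 0 reached 2-fold and the integrin alpha median was 0.21. In 7 settings, 32 of 37 measured genes kept their sign. The others were Col5a2, Itga2, Itgb3, Col15a1 and Col6a2. Leaving out a replicate was not run with 1 array a group. No paired analysis was possible because each group has 1 array. Of the 37, 24 were read by 1 spot, and the spot error ran from 0.02 to 0.39 and leaves out variation between cultures.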
